A study of Homo sapiens with 6 samples.

Results

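Glycolysis was followed through 10 enzyme genes, HK2, GPI, PFKP, ALDOA, ALDOC, TPI1, PGK1, PGAM1, ENO1 and LDHA, chosen by name because together they run from the entry of glucose to lactate and include PGAM1. Each has a row of its own, so they are 10 of the 26906 rows measured. The cells were BE-(2)-C, an established human neuroblastoma line with an amplified MYCN gene, grown in medium with serum. A first group of 3 libraries came from cells given a control siRNA and a second group of 3 libraries from cells given an siRNA against ELF4, which encodes an ETS transcription factor, and polyA RNA was sequenced at 48 hours. All 6 libraries share the line, the medium and an siRNA treatment. The data come from 1 line, and whether the ELF4 siRNA is a single sequence or a pool is not given in the sources used here. The labels number the treated samples but do not say that they were separate cultures. The p-values below therefore set group differences only against the spread among these libraries, which may be technical. For each gene the main fit draws this spread partly from genes of like level.

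Glycolysis splits glucose into pyruvate through a fixed chain of enzymes and yields ATP without oxygen, and lactate dehydrogenase then turns pyruvate into lactate. Many steps have isozymes from separate genes, which differ in regulation and in the tissues that use them. PGAM1, the main phosphoglycerate mutase outside muscle, moves the phosphate of phosphoglycerate to the position from which enolase can act. Growing tumour cells are known for a high use of this pathway, and several of its genes are known targets of MYC proteins and of the hypoxia-inducible factors.

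The libraries held 23148635 to 38097986 reads, and levels are normalised read counts, given library by library in the order of replicates 1 to 3. The targeted gene, ELF4, was 38.8 to 46.8 in the control libraries and 3.10 to 5.61 in the ELF4 siRNA libraries, a mean of 11.1% of the control level resting on 3 to 66 reads per library. All 11 sympathetic neuroblast markers looked for had a row, and their summed level was 238876 to 255511 in control libraries and 276108 to 298578 in ELF4 siRNA libraries. The sum of 7 Schwann cell and glia markers was 634 to 673 in control libraries and 1259 to 1305 in ELF4 siRNA libraries, and of the 4 tested 2 rose and 1 fell. PMP22, a myelin protein gene that other cells also use, rose by 1.26 on the log2 scale, while the defining markers SOX10 and MBP stayed under 10. Of 7 tested fibroblast markers 4 rose and 2 fell (median log2 fold change 0.31): COL3A1 rose by 1.75 and DCN by 0.83, while the abundant THY1 went from a mean of 5376 to 4443 and PDGFRB from 1989 to 875. The sum of all 8 fibroblast markers, which those 2 dominate, was 9158 to 9358 in control and 8101 to 8711 in ELF4 siRNA libraries. The 6 epithelial markers summed to 231 to 249 and 192 to 232 (1 rose and 2 fell of 4 tested), and the 4 of 8 blood and endothelium markers with a row to 58.3 to 67.8 and 46.6 to 64.0 (1 rose and 1 fell of 2 tested). The part of these marker differences in the results was not tested. Lower RNA per cell and fewer cells of a type cannot be told apart in such bulk libraries.

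PGAM1 fell furthest of the 10 enzymes, to 55.9% of its control level. Of the other enzymes, HK2, ALDOA, TPI1, PGK1, ENO1 and LDHA fell by 22.2% at most, GPI rose by 17.8% and ALDOC from a mean of 596 to one of 698, and PFKP did not pass the test. Thus 7 of the 10 genes fell and 2 rose at an adjusted p threshold of 0.05, in a table where 45.1% of the 20339 genes tested were called, 24.4% as lower and 20.7% as higher. Calls were more common among well-measured genes. In a fit of the 13056 genes with a mean of at least 100, which include all 10 enzymes, 4424 were lower and 3353 higher. The median log2 fold change there was -0.03. The control and ELF4 siRNA libraries did not overlap for 9 of the 10 genes, which was so for 53.6% of all genes tested. The median log2 fold change (ELF4 siRNA against control siRNA) was -0.15 for the 10 genes and 0.00 for all genes tested. Together the 10 genes held 0.495%, 0.499% and 0.476% of the reads with control siRNA and 0.436%, 0.449% and 0.427% with ELF4 siRNA. Every ELF4 siRNA library lay below every control library in this share.

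**Figure D1:**
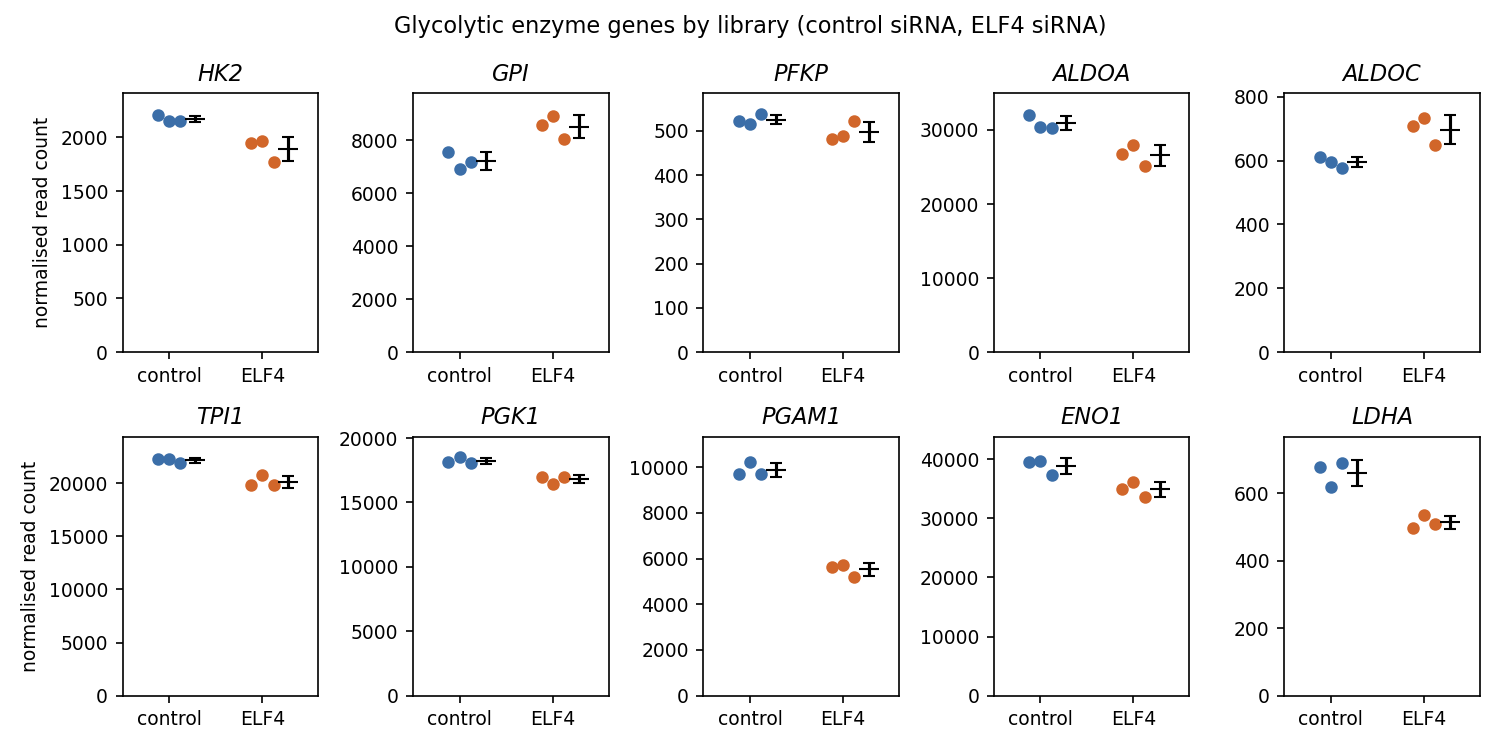
Normalised read count of each of the 10 enzyme genes on the vertical axis, 1 point per library, with a line at the mean of the 3 libraries of a group. PGAM1 lies at 9706 to 10229 in control libraries and at 5197 to 5736 in ELF4 siRNA libraries, and only the points of PFKP overlap between the groups.

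PGAM1 has a near-identical copy, PGAM4, a gene without introns on which many reads of PGAM1 could also be placed. The coding sequences of PGAM1 and PGAM4 in GENCODE 29 are both 765 bases long, differ at 13 positions and are 98.3% identical. The longest identical stretch is 269 bases, and 46.5% of the 716 windows of 50 bases are the same in both. Stretches where they do differ are shown because only reads over such bases can separate the genes. Positions count from 1 at the first base of the coding sequence, capitals mark the differing bases, and the changes from PGAM1 to PGAM4 are G43A, G70T and C87T within coding bases 31 to 100.
PGAM1: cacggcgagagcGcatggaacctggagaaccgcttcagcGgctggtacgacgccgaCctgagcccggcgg
PGAM4: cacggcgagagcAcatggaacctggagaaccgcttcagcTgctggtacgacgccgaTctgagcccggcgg

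In a further stretch of the same genes, the changes from PGAM1 to PGAM4 are G572A, T581C and C589G.
PGAM1: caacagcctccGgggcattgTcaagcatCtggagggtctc
PGAM4: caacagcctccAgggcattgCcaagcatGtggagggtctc

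The level of PGAM1 was 9710, 10229 and 9706 with control siRNA and 5646, 5736 and 5197 with ELF4 siRNA. The lowest control library was thus far above the highest ELF4 siRNA library. The mean fell from 9882 ± 301 to 5526 ± 289 (SD, n = 3 libraries per group, as in all means below), a log2 fold change of -0.84 (SE 0.04, 95% interval -0.93 to -0.74, adjusted p = 7.64e-09). Among the 5682 tested genes with a mean of at least 1000, 67 (1.18%), PGAM1 itself included, had a fold change as low as that of PGAM1 or lower. The median size of change among the 5682 was 0.18 on the log2 scale.

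PGAM4 moved with it. The row named PGAM4 was at 1849, 1897 and 1857 with control siRNA and at 1052, 1089 and 1015 with ELF4 siRNA. Its log2 fold change was -0.83 (adjusted p = 1.21e-08). As a share of the PGAM1 value it was 18.9% ± 0.311 in control libraries and 19.1% ± 0.456 in ELF4 siRNA libraries, and the 2 groups overlapped in this share. How reads that match both genes were assigned is not given in the sources used here, so the levels of both are uncertain. A further row, the pseudogene PGAM1P5, fell from a mean of 40.6 to 24.5 (log2 fold change -0.70, adjusted p = 0.00474), a call that DESeq2 did not give (adjusted p = 0.0590).

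The reactions before PGAM1 begin with HK2, the hexokinase that traps glucose in many tumour cells. Its level was 2208, 2157 and 2151 with control siRNA and 1945, 1964 and 1768 with ELF4 siRNA. All ELF4 siRNA libraries were below all control libraries, and HK2 fell by 12.9%, with a log2 fold change of -0.20 (SE 0.05, adjusted p = 0.00398). GPI, which turns glucose phosphate into fructose phosphate, went the other way. It was at 7571, 6917 and 7167 with control siRNA and at 8568, 8904 and 8046 with ELF4 siRNA. The groups were apart, and the log2 fold change was 0.24 (SE 0.05, adjusted p = 8.48e-04). A second row joins the name GPI with the overlapping gene RP11-618P17.4 and holds more reads in every library, with means of 8769 ± 482 and 9575 ± 550. That joined row did not pass the test (0.13, adjusted p = 0.0529). Its call depended on the setting. It passed in edgeR (adjusted p = 0.0314) and DESeq2 (0.0272), with the replicate block (0.0188), among genes with a mean of at least 100 (0.0440), under TMM scaling (0.0479) and under scaling to the library total (0.0209). It also passed without control replicate 1 (0.0397) and without ELF4 siRNA replicate 3 (0.0115), and its log2 fold change was 0.08 without control replicate 2. With the joined row added to the row of GPI, the log2 fold change was 0.18 (adjusted p = 0.00710).

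PFKP, the platelet form of phosphofructokinase, the main control point of the pathway, was at 523, 516 and 538 with control siRNA. With ELF4 siRNA it was at 481, 489 and 523. The highest ELF4 siRNA library overlapped the control libraries, and the log2 fold change was -0.08 (95% interval -0.21 to 0.05, adjusted p = 0.305). PFKP was thus the 1 enzyme of the 10 that was not called in either direction.

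The aldolases cleave the sugar, and their 2 genes here changed in opposite directions. ALDOA, the main aldolase of most cells, was at 31994, 30452 and 30257 with control siRNA and at 26770, 27909 and 25098 with ELF4 siRNA. The groups did not overlap, and ALDOA fell by 13.9% (log2 fold change -0.22, SE 0.04, adjusted p = 9.70e-04). ALDOC, the aldolase known from brain, was at 612, 597 and 578 with control siRNA and at 709, 735 and 648 with ELF4 siRNA. Here every ELF4 siRNA library was above every control library, with a log2 fold change of 0.22 (SE 0.06, adjusted p = 0.00780). TPI1, which makes the triose phosphates interchangeable, was at 22274, 22303 and 21868 with control siRNA and at 19820, 20777 and 19793 with ELF4 siRNA. It fell by 9.11%, and its groups were apart (log2 fold change -0.14, SE 0.04, adjusted p = 0.00628). The pseudogene TPI1P1 had a mean of 1811 in control and 1633 in ELF4 siRNA libraries, so part of the TPI1 reads could have been counted there.

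PGK1, which makes ATP directly and supplies the substrate of PGAM1, was at 18130, 18496 and 18097 with control siRNA. With ELF4 siRNA it was at 16968, 16452 and 16996. The groups were apart, and PGK1 fell by 7.87% (log2 fold change -0.12, SE 0.04, adjusted p = 0.0133). Without ELF4 siRNA replicate 2 the adjusted p of PGK1 was 0.0513. ENO1, the enolase that acts just after PGAM1, was at 39542, 39738 and 37320 with control siRNA and at 34955, 36213 and 33680 with ELF4 siRNA. It fell by 10.1% with no overlap (log2 fold change -0.15, SE 0.04, adjusted p = 0.00672). The calls of TPI1, PGK1 and ENO1 ended in limma without a trend of the variance on the level, where their adjusted p was 0.0580, 0.0782 and 0.0680.

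LDHA, the lactate dehydrogenase subunit known for its use in tumours and low oxygen, was at 677, 617 and 689 with control siRNA. With ELF4 siRNA it was at 496, 535 and 510. The groups were well apart, and LDHA fell by 22.2% (log2 fold change -0.36, SE 0.06, adjusted p = 2.88e-04), next to PGAM1 in size. These values rest on 450 to 972 reads per library. LDHA has pseudogene copies, and how reads shared with them were counted is not given in the sources used here, so its level is uncertain.

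**Figure D2:**
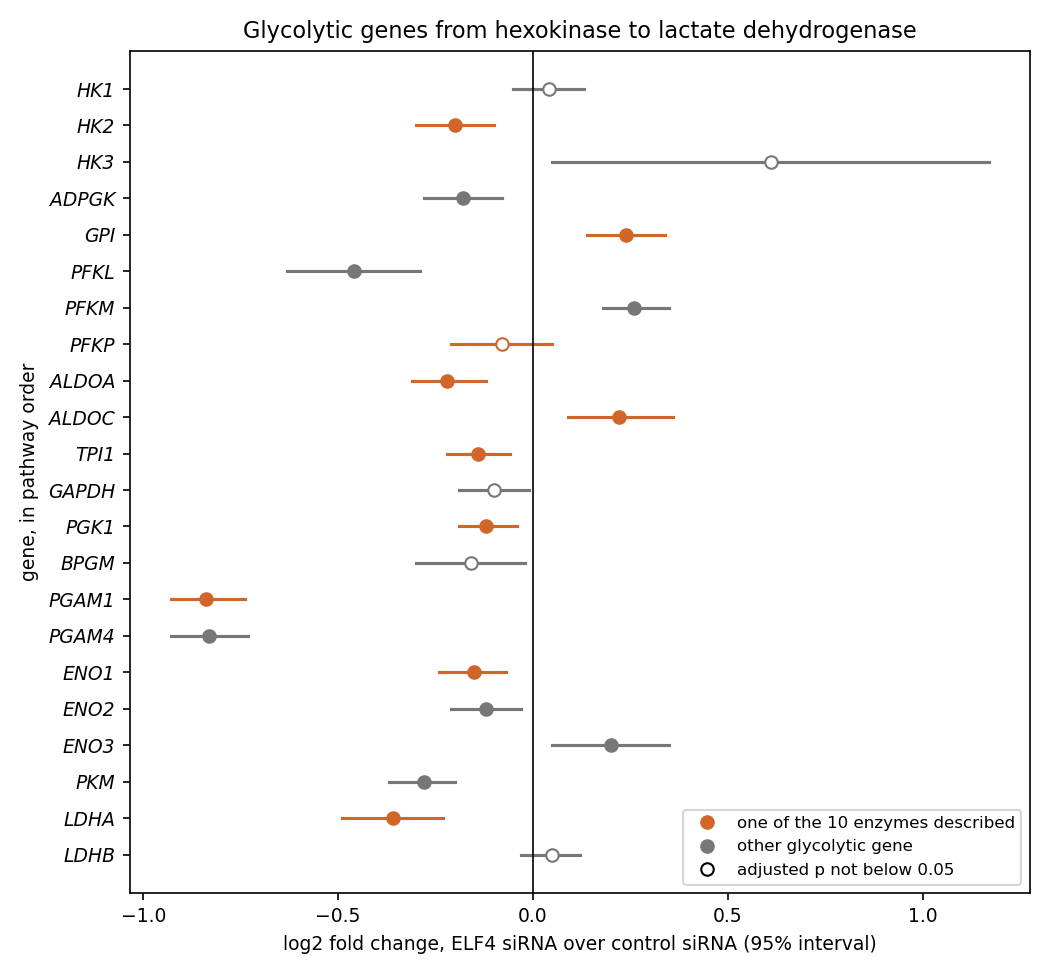
Log2 fold change with ELF4 siRNA relative to control siRNA (horizontal axis) with its 95% interval for the 10 enzymes and 12 other glycolytic genes tested, in pathway order. PGAM1 and PGAM4 lie at -0.84 and -0.83, and the other intervals of called genes lie nearer to 0, with GPI, PFKM, ALDOC and ENO3 to the right of it.

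Levels of different genes are compared per kilobase of the main GENCODE 29 transcript, as normalised reads. In control libraries ALDOA came first with 19277 per kilobase, followed by TPI1 with 17992, ENO1 with 16574 and PGAM1 with 5400. PGK1 with 3733 and GPI with 1721 came next. The GPI level leaves out the joined row, whose control mean was 8769 against 7218 for the row of GPI. The place of GPI in this order is therefore uncertain. The lowest levels were those of HK2 with 376, ALDOC with 301, LDHA with 273 and PFKP with 198. The place of LDHA is uncertain too, because the counting of reads shared with its pseudogenes is not given. No 2 neighbours in this order overlapped between control libraries. After ELF4 siRNA, PGAM1 was below PGK1, with 2840 to 3134 per kilobase against 3366 to 3478, where in control libraries it had been above it with 5304 to 5589 against 3703 to 3785. Per kilobase of coding sequence, PGAM1 was below PGK1 in control libraries as well, with 12917 against 14546, so that order depends on the length used. By coding length ENO1 came first with 29783, then TPI1 with 29531 and ALDOA with 28220. LDHA with 661 was then above ALDOC with 544. Per kilobase of transcript, ALDOA and TPI1 overlapped in the ELF4 siRNA libraries, as did ALDOC and HK2.

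Of 20 further glycolytic genes listed, 13 had a row, and all 13 were tested: 2 rose, 5 fell and 6 were not called, and the median log2 fold change was -0.12. Over all genes tested, 20.7% were called higher and 24.4% lower. PKM, whose gene encodes the pyruvate kinase of most cells, was at 64460, 65804 and 61782 with control siRNA and at 52486, 53878 and 51270 with ELF4 siRNA, a log2 fold change of -0.28 (adjusted p = 3.71e-05). ADPGK, a sugar kinase that uses ADP, also fell (-0.18, adjusted p = 0.00475). Beside PFKP at -0.08, the other phosphofructokinase genes were both called: PFKL, the liver form, fell by 0.46 on the log2 scale (adjusted p = 3.25e-04) and PFKM, the muscle form, rose by 0.26 (adjusted p = 9.30e-05). GAPDH, which links PGK1 to the triose phosphates and was the most abundant of these genes with 37535 per kilobase in control libraries, did not pass the test (-0.10, adjusted p = 0.0614). It passed without control replicate 2 (adjusted p = 0.0409) and without ELF4 siRNA replicate 2 (0.0154). With the replicate block GAPDH (0.0398), BPGM (0.0360) and HK3 (0.0411) all passed. BPGM, a relative of PGAM1 known from red blood cells, had a log2 fold change of -0.16 (adjusted p = 0.0624), and 0.0332 without ELF4 siRNA replicate 3. The change of the other enolases was small: ENO2, the neuronal form, had -0.12 (adjusted p = 0.0236) and ENO3, the muscle form, 0.20 (adjusted p = 0.0356). The call of ENO2 was lost without control replicate 1 or 3 or ELF4 siRNA replicate 1 or 2 (adjusted p up to 0.104), and that of ENO3 without control replicate 1 or 3 or ELF4 siRNA replicate 2 or 3 (up to 0.175). In limma without the trend ENO2 (0.103) and ENO3 (0.0687) were not called either, nor was ENO3 in DESeq2 (0.0784). HK1 (0.04, adjusted p = 0.430) and LDHB (0.05, adjusted p = 0.314) did not pass. HK3 had 0.61 (adjusted p = 0.0728) at means of 13.4 and 21.3, and an adjusted p of 0.0168 without ELF4 siRNA replicate 1.

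Ratios of 2 genes within a library do not depend on how libraries were scaled, and 8 pairs were compared with exact two-sided permutation tests over the 6 libraries. The smallest p this design allows is 0.1, which 7 of the 8 pairs reached (adjusted p = 0.114 over the pairs), so no pair could pass 0.05. PGAM1 was lower relative to the enzymes on both sides of it in the pathway. The log2 ratio of PGAM1 over PGK1 was lower by 0.72 after ELF4 siRNA and that of PGAM1 over ENO1 by 0.69, with SDs within groups of 0.07 and 0.04. The ratio of ALDOC over ALDOA was higher by 0.44 on the log2 scale (SD 0.02), and that of LDHB over LDHA by 0.41 (SD 0.06). HK2 over HK1 was lower by 0.24 (SD 0.03) and PFKP over PFKM by 0.34 (SD 0.08), while PFKP over PFKL was higher by 0.38 (SD 0.18). Without ELF4 siRNA replicate 3, the difference for PFKP over PFKL was 0.24. Only ENO2 over ENO1 overlapped between the groups, with a difference of 0.03 (SD 0.08, exact permutation p = 0.600). LDHB was far above LDHA per kilobase in control libraries, 28904 against 273, HK1 above HK2 with 1840 against 376, and PFKM above PFKP with 1733 against 198. As the level of LDHA is uncertain, so are its distance from LDHB and the ratio of LDHB over LDHA.

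**Figure D3:**
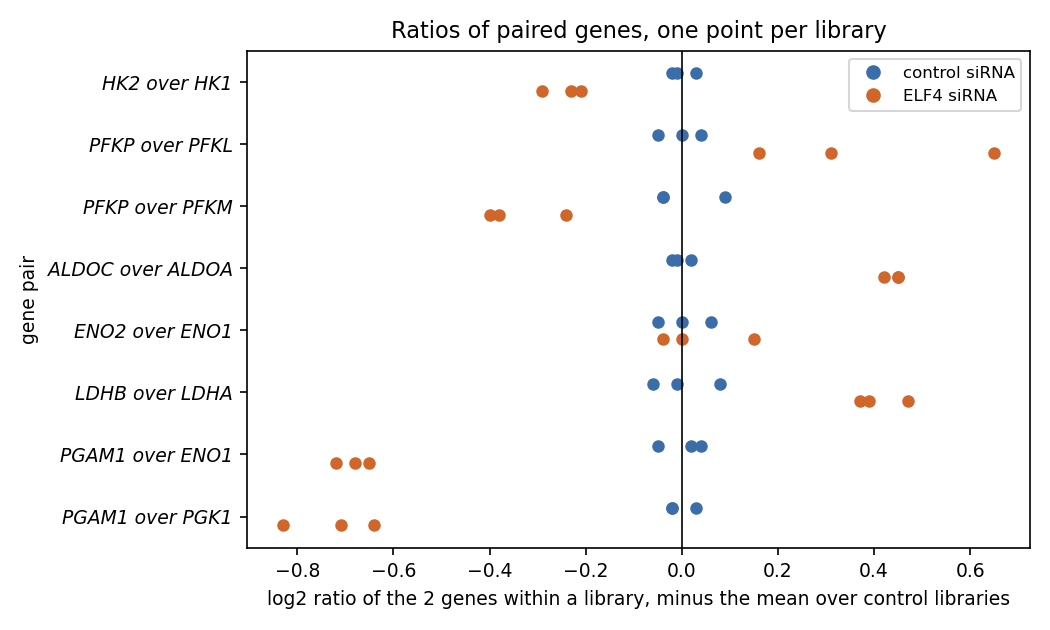
Log2 ratio of 2 genes within a library minus its mean over the control libraries (horizontal axis), 1 point per library. The ELF4 siRNA points lie apart from the control points in 7 of 8 pairs, at a mean of -0.72 for PGAM1 over PGK1, and overlap them for ENO2 over ENO1.

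Around the pathway, the transporters of glucose and lactate had the lowest median of the pathway lists. Of 13 such genes tested, 5 fell, none rose and 8 were not called (median log2 fold change -0.28). Beside this list and those that follow stands the share over all 20339 genes tested, 24.4% called lower and 20.7% higher. BSG, the chaperone that brings lactate transporters to the cell surface, was at 20170, 19710 and 19478 with control siRNA and at 13121, 13499 and 12422 with ELF4 siRNA (-0.61, adjusted p = 4.38e-08). SLC16A7, a monocarboxylate transporter, fell by 0.82 on the log2 scale (adjusted p = 8.12e-07), and SLC2A1, the common glucose transporter, by 0.28 (adjusted p = 0.00113). SLC16A1, a monocarboxylate transporter with means of 8636 and 8162 against 418 and 237 for SLC16A7, did not pass (-0.08, adjusted p = 0.254). SLC2A12 had -0.55 at means of 34.5 and 23.2 (adjusted p = 0.0211), a call lost without control replicate 3 or ELF4 siRNA replicate 2 or 3, with an adjusted p of up to 0.115, and in DESeq2 (0.161).

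Among 15 genes that regulate the flux, 8 fell, 3 rose and 4 were not called (median log2 fold change -0.20). EPAS1, which encodes the hypoxia factor subunit HIF-2alpha, was at 652, 609 and 659 with control siRNA and at 221, 199 and 189 with ELF4 siRNA. Its log2 fold change was -1.65 (adjusted p = 1.88e-09), whereas HIF1A did not pass (0.05, adjusted p = 0.437). PFKFB3, whose product makes the activator of phosphofructokinase, fell by 0.66 (adjusted p = 1.66e-06), and PDK3, a kinase that holds back pyruvate dehydrogenase, by 0.94 (adjusted p = 9.90e-06). TXNIP, which restrains glucose uptake, rose by 0.30 (adjusted p = 6.55e-05). MYCN, the amplified oncogene of the line, had a mean of 78443 in control and 70994 in ELF4 siRNA libraries (-0.14, adjusted p = 0.0189), and its call was lost without control replicate 1 or 3 or ELF4 siRNA replicate 3, with an adjusted p of up to 0.0821, and in limma without the trend (0.115).

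The 19 other hypoxia-induced genes tested did not move one way: 5 rose, 8 fell and 6 were not called (median log2 fold change -0.04). DDIT4, an inhibitor of mTOR signalling, rose by 0.79 (adjusted p = 1.46e-07), KDM3A, a histone demethylase, by 0.72, and VEGFA, the endothelial growth factor, by 0.39 (adjusted p = 2.98e-06). P4HA1, a collagen prolyl hydroxylase subunit, fell by 0.41 (adjusted p = 1.93e-05).

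Beyond pyruvate, 12 of 25 tested genes of pyruvate oxidation and the citric acid cycle fell, 3 rose and 10 were not called (median log2 fold change -0.09). MPC1, part of the mitochondrial pyruvate carrier, fell by 0.45, PC, pyruvate carboxylase, by 0.44, DLST, a subunit of the oxoglutarate dehydrogenase complex, by 0.38, and CS, citrate synthase, by 0.34. Of 8 genes of the pentose phosphate branch, 2 rose, 2 fell and 4 were not called (median log2 fold change -0.03). RPE and RPIA, which interconvert pentose phosphates, fell by 0.34 and 0.31, and PGLS rose by 0.29, while H6PD had 0.27 (adjusted p = 0.0313), a call lost without any library but control replicate 2, with an adjusted p of up to 0.133, and also lost in DESeq2 (0.0525) and in limma without the trend (0.0976). A further 7 tested genes belong to serine and glycine synthesis from the PGAM1 substrate or to linked folate steps. Of these, 2 fell and 5 were not called (median log2 fold change 0.03). Those 2 were SHMT1 and SHMT2, the hydroxymethyltransferases of cytosol and mitochondria, by 0.38 and 0.24. PHGDH, the entry enzyme of serine synthesis, had -0.05 (adjusted p = 0.391).

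In gluconeogenesis, glycogen and glycerol metabolism, 3 of 19 genes rose, 5 fell and 11 were not called (median log2 fold change 0.01). PCK2, the mitochondrial enzyme that makes phosphoenolpyruvate, was at 1481, 1436 and 1407 with control siRNA and at 2162, 2101 and 2253 with ELF4 siRNA (0.59, adjusted p = 2.20e-07). G6PC3, a phosphatase of glucose phosphate, rose by 0.56 (adjusted p = 2.08e-07). GPD2, the mitochondrial end of the glycerol phosphate shuttle, fell by 0.81 (adjusted p = 1.05e-06), and PGM2L1, which makes glucose bisphosphate, by 0.60 (adjusted p = 5.40e-05).

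**Figure D4:**
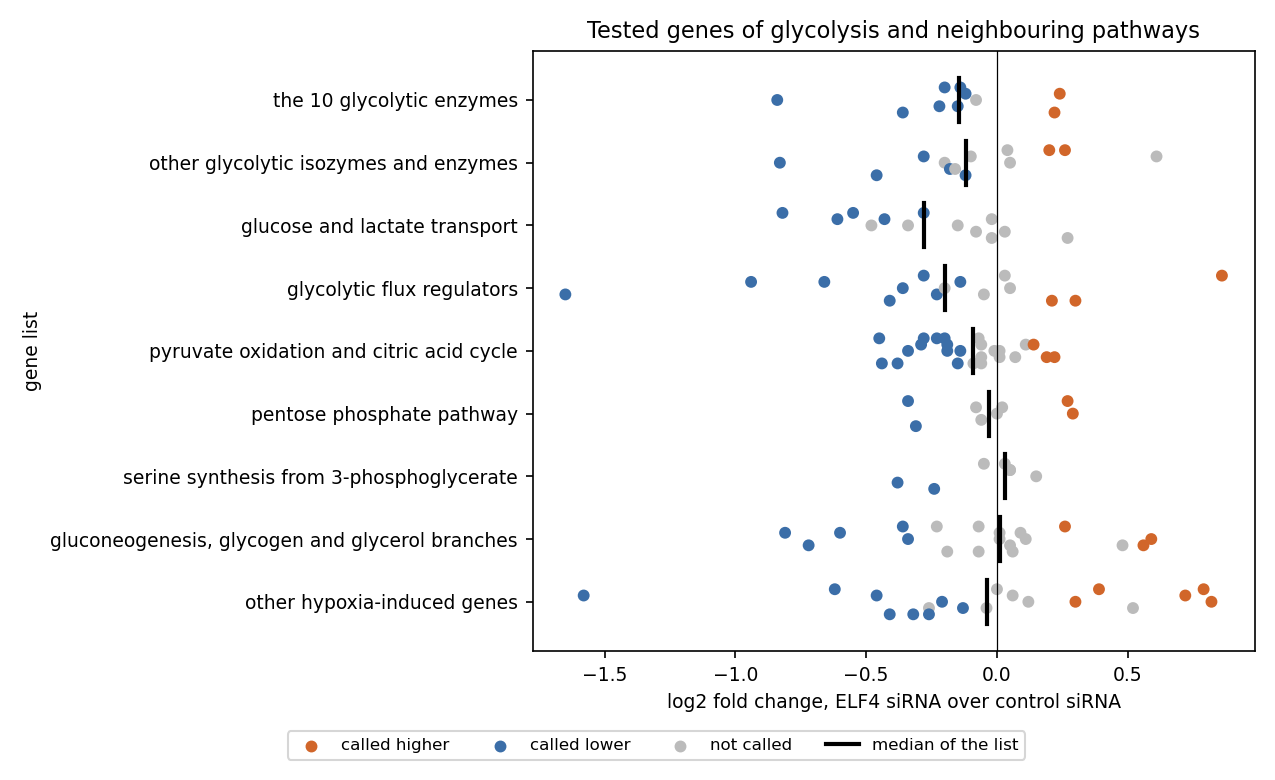
Log2 fold change with ELF4 siRNA relative to control siRNA (horizontal axis) for each tested gene of 9 lists, 1 point per gene, with a bar at the median of the list. The medians run from -0.28 for the transporters to 0.03 for serine synthesis, and the lowest points are EPAS1 at -1.65 and the hypoxia-induced gene PLOD2 at -1.58.

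The 5 tested genes with a mean of at least 1000 whose values followed PGAM1 most closely were found by the root mean square difference of log2 values, centred on each gene's mean, over the 6 libraries. They were chosen from 5681 genes for this likeness, so their values are a description. TUBB3, a neuronal tubulin, differed by 0.016 and had means of 12321 and 6904 in control and ELF4 siRNA libraries. RP11-887P2.3 differed by 0.019, PGAM4 by 0.025, AURKB, a mitotic kinase, by 0.027, and SRPR, a subunit of the receptor for the signal recognition particle, by 0.028. All 5 had log2 fold changes from -0.85 to -0.83.

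Promoters were read from RefSeq on GRCh38.p14, as windows from 250 bases before to 50 bases after a start site, and 9 of the 10 genes had a window within 1000 bases of the start of their main transcript; PGAM1 did not. The letters searched on both strands were the core of hypoxia response elements, ACGTG or GCGTG, the E-box CACGTG, which contains ACGTG, and the ETS-type CCGGAA. A hypoxia core was in 7 of the 9 windows and in 48.4% of 35116 RefSeq windows of the same length. The E-box was in 3 of the 9 windows (ALDOA, ALDOC and LDHA) and in 7.26% of all windows. CCGGAA was in 4 of the 9 (LDHA, GPI, PFKP and ENO1) and in 17.2% of all windows. A match describes letters and does not show a bound site. Windows of 1 gene that fell, LDHA, and of the 2 that rose, ALDOC and GPI, are shown, with these motifs in capitals. They lie at chr11:18394313-18394612 on the plus strand, chr17:28576846-28577145 on the minus strand and chr19:34364742-34365041 on the plus strand.
LDHA: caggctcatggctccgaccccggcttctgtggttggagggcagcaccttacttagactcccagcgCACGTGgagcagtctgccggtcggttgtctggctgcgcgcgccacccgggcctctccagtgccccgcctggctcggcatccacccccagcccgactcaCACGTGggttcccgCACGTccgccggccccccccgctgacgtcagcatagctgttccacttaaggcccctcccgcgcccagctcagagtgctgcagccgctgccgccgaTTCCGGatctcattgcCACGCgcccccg
ALDOC: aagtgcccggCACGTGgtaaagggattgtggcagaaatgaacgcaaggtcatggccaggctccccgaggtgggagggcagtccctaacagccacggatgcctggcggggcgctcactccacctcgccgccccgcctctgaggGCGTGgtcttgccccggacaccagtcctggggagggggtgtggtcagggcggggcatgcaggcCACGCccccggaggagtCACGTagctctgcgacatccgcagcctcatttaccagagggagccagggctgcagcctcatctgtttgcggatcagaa
GPI: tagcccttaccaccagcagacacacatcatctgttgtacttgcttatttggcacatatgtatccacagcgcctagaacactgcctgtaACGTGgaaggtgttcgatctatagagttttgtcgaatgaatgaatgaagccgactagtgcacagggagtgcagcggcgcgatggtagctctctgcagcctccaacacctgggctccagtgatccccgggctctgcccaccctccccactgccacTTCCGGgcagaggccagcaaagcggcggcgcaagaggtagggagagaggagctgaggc
The window of LDHA, which fell, and that of ALDOC, which rose, both hold the E-box and further hypoxia cores, while the window of GPI holds 1 hypoxia core and 1 ETS-type motif.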

How the data were processed

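PolyA RNA of 6 BE-(2)-C libraries was sequenced. The submitters' processing notes list hg19, DESeq2, featureCounts and TopHat. How strands were treated and which annotation served is not stated there, so antisense and overlapping genes cannot be told apart. The deposited signal is a read count per gene divided by a size factor, and 100% of values were whole reads within 0.001 once that factor was undone. In 2148 rows several names are joined. limma 3.58.1 (R 4.3.3) with a trend was fitted on log2(value + 1) over the 20339 genes with at least 10 in at least 3 libraries, with Benjamini-Hochberg adjustment over all of them, and understates changes of low genes. Alternatives were other scalings, pseudocounts and filters, no trend, edgeR and DESeq2 on recovered reads, a replicate block and each library left out; adding PGAM4 to PGAM1 was chosen after seeing the data. The members, lists and tests were chosen with earlier results of these data known. Named were ELF4, the 10 enzymes, the other glycolytic genes tested, up to 4 genes per further list with the smallest adjusted p or a mean of at least 10000, the pair genes, the 5 genes most like PGAM1, and joined or pseudogene rows; some genes that this rule names are not reported here. PLOD2, PMP22, COL3A1, DCN, THY1, PDGFRB and SLC16A1 were chosen after their values were seen. Same-group libraries differed by more than sampling noise (chi-square per degree of freedom 2.07 to 5.84). The fit was tested on simulated data. Sequences came from GENCODE 29 and RefSeq.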

Additional observations from a re-analysis of the deposited data

How the results depend on the processing

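Over all alternatives run, PGAM1 kept its call, with log2 fold changes from -0.87 to -0.80. Of the 10 enzymes, 2 rose and 7 fell in every fit but these: limma without the trend left 4 that fell, losing TPI1, PGK1 and ENO1, and leaving out 1 library gave 6 to 7 that fell, with PGK1 lost without ELF4 siRNA replicate 2. Of 172 single values of the enzymes under the alternatives, 168 kept direction and call and 4 lost the call. Of 1059 values of all 66 named genes, 994 kept both, 45 lost the call, 20 gained it, and none with a call reversed. Over all genes, 4217 rose and 4956 fell, against 4454 and 4807 in edgeR and 3452 and 4048 in DESeq2. Same-numbered libraries correlated at 0.029 to 0.075, below 0.1, so the numbers were not taken as pairing; each library correlated best with its own number. The replicate block gave 4564 higher and 5346 lower genes, and among the enzymes 2 and 7; GAPDH, BPGM, HK3, PSPH and the joined GPI row gained a call and PGK1P2 lost one, and no other named gene changed its call. The median of all genes moved by at most 0.03. The precision of LDHA, PFKP and ALDOC is limited by their few reads, 450 to 972 per library for LDHA.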

Other observations

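The 7-letter words ACCTGTC and CCTGTCA, which overlap in 6 letters, had been picked from the 3′ untranslated regions in an earlier analysis of these same libraries, so counts of them here are a description. At least 1 of them is present in the GENCODE 29 3′ untranslated region of 2 of the 10 enzymes, HK2 and PGK1, and in 2262 of 12466 tested genes with such a region (18.1%). PGAM1, which fell furthest, holds neither. Of the 13 other glycolytic genes tested, PKM and PFKL, which both fell, hold at least 1. Of the transporters and flux regulators named above, EPAS1, PDK3, SLC16A7 and PFKFB3, which fell, and TXNIP, which rose, hold at least 1. BSG, SLC2A1, SLC2A12 and MYCN, which fell, and HIF1A and SLC16A1, which did not pass, hold neither. The part of these words in the changes was not tested. Places in HK2, PGK1, PKM and PFKL are shown with 10 bases on either side and the word in capitals. At the ACCTGTC of PGK1 and that of PFKL both words overlap, and the lower-case a after the capitals ends CCTGTCA.
HK2: tactgattctCCTGTCAgagatctggg
PGK1: ttttttttttCCTGTCAtactttgtta
PGK1: cgggcagatcACCTGTCaggagtttgg
PKM: tccagtttgcACCTGTCcccaccctcc
PFKL: cacgtgcagcACCTGTCaccttttcta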
